A study of Mus musculus with 12 samples.

Results

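Scavenger and lipoprotein receptors are the surface proteins through which macrophages take up modified lipoproteins. Their transcripts were followed in thioglycolate-elicited peritoneal macrophages of mice fed chow or a high-fat diet. The set was chosen by gene symbol, with earlier results of these data known. It held 9 genes, namely Msr1, Marco, Cd36, Scarb1, Cd68, Cxcl16, Stab1, Lrp1 and Vldlr. Of these, 8 had a row among the 12339 genes of the count table, and all 8 passed the filter on low counts, as did all 12339 genes. Vldlr was not analysed here.

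The study compared mice of 2 genotypes, labelled WT and meKO, that were fed chow or a high-fat ("Western") diet, labelled HFD. Myeloid protein kinase C epsilon, the product of Prkce, is named in the series title, so meKO is read as its myeloid knockout; the labels name no recombinase line, and the Cre driver and the allele are therefore not known here. Mice of both genotypes and on both diets received an adeno-associated viral vector at 8 weeks of age, so the chow controls carried it too. Macrophages were elicited with thioglycolate 4 weeks after vector and diet and washed from the peritoneum. Crossing genotype and diet gave 4 groups, WT chow and HFD and meKO chow and HFD, of 3 libraries, and the labels describe 8 animals per genotype, 4 of them on HFD. No label says whether a library came from 1 animal, so p-values measure the spread between libraries. Replicate numbers were assigned here by sample order within each group, and the same number in 2 groups links no libraries.

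Scavenger receptors are a structurally mixed group that share the binding of polyanionic ligands, such as oxidised or acetylated LDL, bacterial surfaces and dying cells. The main scavenger receptors are not shut off by sterol in the cell, and a macrophage that takes up modified LDL through them can become a lipid-laden foam cell. Class A receptors (Msr1, Marco) have a collagen-like stalk, class B receptors (Cd36, Scarb1) cross the membrane at both ends, and the other classes are built from mucin, chemokine or fasciclin domains. Lrp1 is a large endocytic lipoprotein receptor that clears remnant lipoproteins, proteases and apoptotic cells.

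Total counts per library ran from 25844958 to 37282772. Macrophage identity was checked on 8 marker genes, which all had rows. Levels are in CPM (counts scaled to a common library size with TMM factors). The summed level was 38610 to 61675 CPM in WT chow and 38851 to 46077 in WT HFD. It was 8688 to 29321 CPM in meKO chow and 25467 to 29106 in meKO HFD, so every meKO library lay below every WT library. Lyz2 weighed most in this sum, with a range of 69.3 to 53840 CPM. Taken singly, 0 of the 8 markers were called between genotypes in edgeR on chow, on HFD or averaged over diets. The averaged contrast called 0.17% of all genes, and the markers' median log2 difference there was -0.10. Adgre1 ran from 513 to 697 CPM and Csf1r from 473 to 844 CPM. The lowest library, meKO chow replicate 2, stood apart with a Lyz2 level of 69.3 CPM. Adding or leaving out that library changed none of the calls on the receptors in the diet contrasts. Prkce averaged 3.69 ± 1.16 CPM in WT chow, 2.48 ± 0.445 in WT HFD, 1.33 ± 0.346 in meKO chow and 1.41 ± 0.419 in meKO HFD (SD, n = 3), and its genotype contrast missed the threshold in edgeR in mice fed chow (adjusted p = 0.0794) and in those fed HFD (0.989). Libraries also differed in how their values followed transcript length. Over 11532 genes, Spearman's rho of transcript length with the deviation of a library from each gene's mean was 0.65 and 0.68 in WT chow replicates 1 and 2, against -0.04 in WT chow replicate 3 and -0.47 to 0.14 in the libraries of the other groups. Lrp1 and Stab1 have transcripts longer than 99.7% and 95.6% of these genes, and Msr1 and Cd68 longer than only 14.2% and 10.3%. Log2 fold changes over these genes followed length too, with rho of -0.57 for diet in WT, -0.34 in meKO and -0.51 averaged over genotypes. It was -0.63 for genotype on chow and -0.26 on HFD. Values are therefore also given after a correction for each library's trend with length and GC content.

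RefSeq promoter windows (GRCm38.p6) were found for 5 of the 8 receptors: Cd36, Cd68, Lrp1, Marco and Stab1. The 250 bases before the start site are printed for the most abundant receptor (Cd68) and for a receptor that was higher on HFD (Cd36) and one that was lower (Stab1), so that the sequence stands beside the values that follow. Capitals mark matches, on either strand, to the PU.1 core GAGGAA, the AP-1 site TGANTCA or the nuclear receptor hexamer AGGTCA, none of which overlapped here. All 3 genes lie on the minus strand, and each sequence runs 5′ to 3′ towards the gene. The windows are chr5:17835897-17836146 for Cd36, chr11:69666171-69666420 for Cd68 and chr14:31168642-31168891 for Stab1. The Cd36 window lies inside the annotated span of the gene, chr5:17781690-17888801, so the start used for Cd36 is an internal one. Bases before the outermost annotated start of Cd36 were not searched.
Cd36: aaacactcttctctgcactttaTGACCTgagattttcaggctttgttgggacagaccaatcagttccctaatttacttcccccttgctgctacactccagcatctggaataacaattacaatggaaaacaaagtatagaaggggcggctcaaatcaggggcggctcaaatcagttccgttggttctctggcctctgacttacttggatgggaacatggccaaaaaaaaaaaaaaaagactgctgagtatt
Cd68: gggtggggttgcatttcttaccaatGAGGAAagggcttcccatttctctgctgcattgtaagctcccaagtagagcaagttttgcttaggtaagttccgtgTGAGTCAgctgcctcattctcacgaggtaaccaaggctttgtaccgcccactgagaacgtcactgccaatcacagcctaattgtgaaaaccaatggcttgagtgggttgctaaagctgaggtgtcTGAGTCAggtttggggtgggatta
Stab1: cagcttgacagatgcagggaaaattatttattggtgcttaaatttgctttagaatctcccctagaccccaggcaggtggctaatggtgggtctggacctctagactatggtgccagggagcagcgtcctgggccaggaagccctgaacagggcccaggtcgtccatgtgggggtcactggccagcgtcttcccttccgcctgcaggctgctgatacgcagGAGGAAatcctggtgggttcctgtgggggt

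The Cd36 window held 1 AGGTCA hexamer, on the opposite strand 228 bases before this internal start, and no match to the other motifs. Cd68 held 1 PU.1 core at 225 bases and 2 AP-1 sites at 149 and 24 bases before the start. Stab1 held 1 PU.1 core, 30 bases before the start. Among the windows not printed, Marco held 1 PU.1 core and Lrp1 held no match. Over all 32851 promoter windows of this length, GAGGAA occurred in 23.3%, TGANTCA in 6.75% and AGGTCA in 14.02%. None of the 5 windows held a direct repeat of AGGTCA spaced by 1 base (the PPAR response element, in 0.0335% of all windows) or by 4 bases (the LXR response element, in 0.0152%), or CACCCCAC, the core of the sterol regulatory element (in 2.58%). These matches describe letters in a short window and say nothing of binding.

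Per transcript length, the receptors fell into an abundant and a scarce group. Cd68, a mucin-like glycoprotein of late endosomes and lysosomes, was the most abundant, at 2548 ± 299 RPKM (CPM divided by the transcript length in kilobases, SD over the 12 libraries). Cd36, which also binds long-chain fatty acids and thrombospondin, followed at 1090 ± 211 RPKM, and Msr1 at 384 ± 64.8 RPKM. The ranges over libraries of these 3 did not overlap one another or those of the other 5. Marco stood at 35.1 ± 11.9 RPKM and Lrp1 at 28.8 ± 7.66 RPKM, with overlapping ranges. Cxcl16 (15.0 ± 3.10), Scarb1 (13.9 ± 3.69) and Stab1 (12.7 ± 5.40 RPKM) came last, and neighbours in that order overlapped. Msr1 kept its place in the order with its longest annotated transcript of 3636 bases in place of the 1424 bases used, at 150 RPKM. In raw counts the 8 receptors made up between 0.699% and 0.913% of a library, and Cd36 alone ranked between 18th and 30th of all genes.

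**Figure D1:**
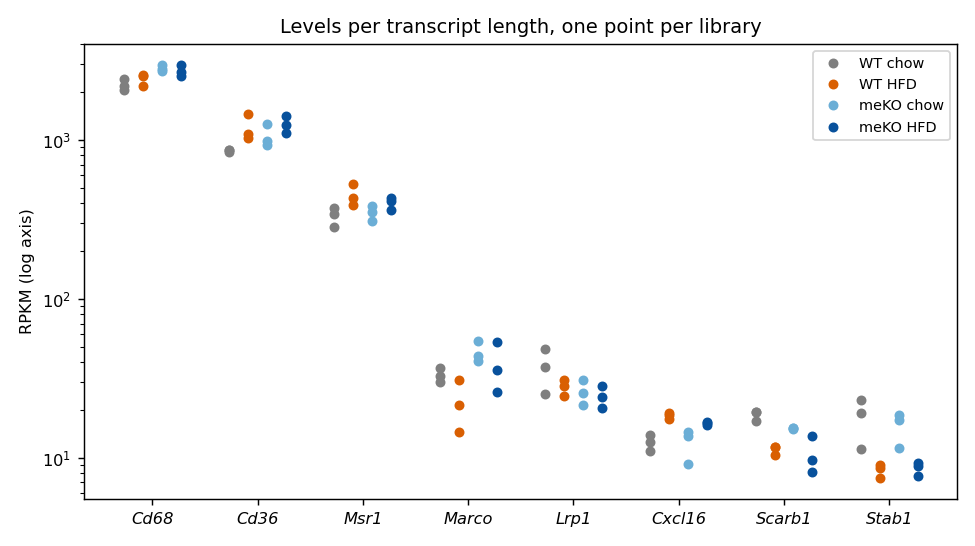
RPKM of each receptor (log axis) in the 12 libraries, coloured by group, in descending order of the mean. Cd68, Cd36 and Msr1 sit above 282 RPKM in every library, and the other 5 receptors sit below 54.1 RPKM.

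Averaged over the 2 genotypes, 5 of the 8 receptors differed between HFD and chow at an edgeR adjusted p under 0.05: Cxcl16, Cd36 and Msr1 rose, and Stab1 and Scarb1 fell. Over all genes tested 30.2% were called in this contrast, 14.9% higher and 15.3% lower, so the diet contrast reached far beyond the receptors. Of these calls 49.3% were higher, against 38.1% with library totals. The receptors' median log2 fold change was -0.11, with 4 values above and 4 below 0, beside -0.03 over all genes. In bulk RNA a change in the number of cells of a type and a change of RNA per cell cannot be told apart. Marco, Lrp1 and Cd68 did not pass.

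**Figure D2:**
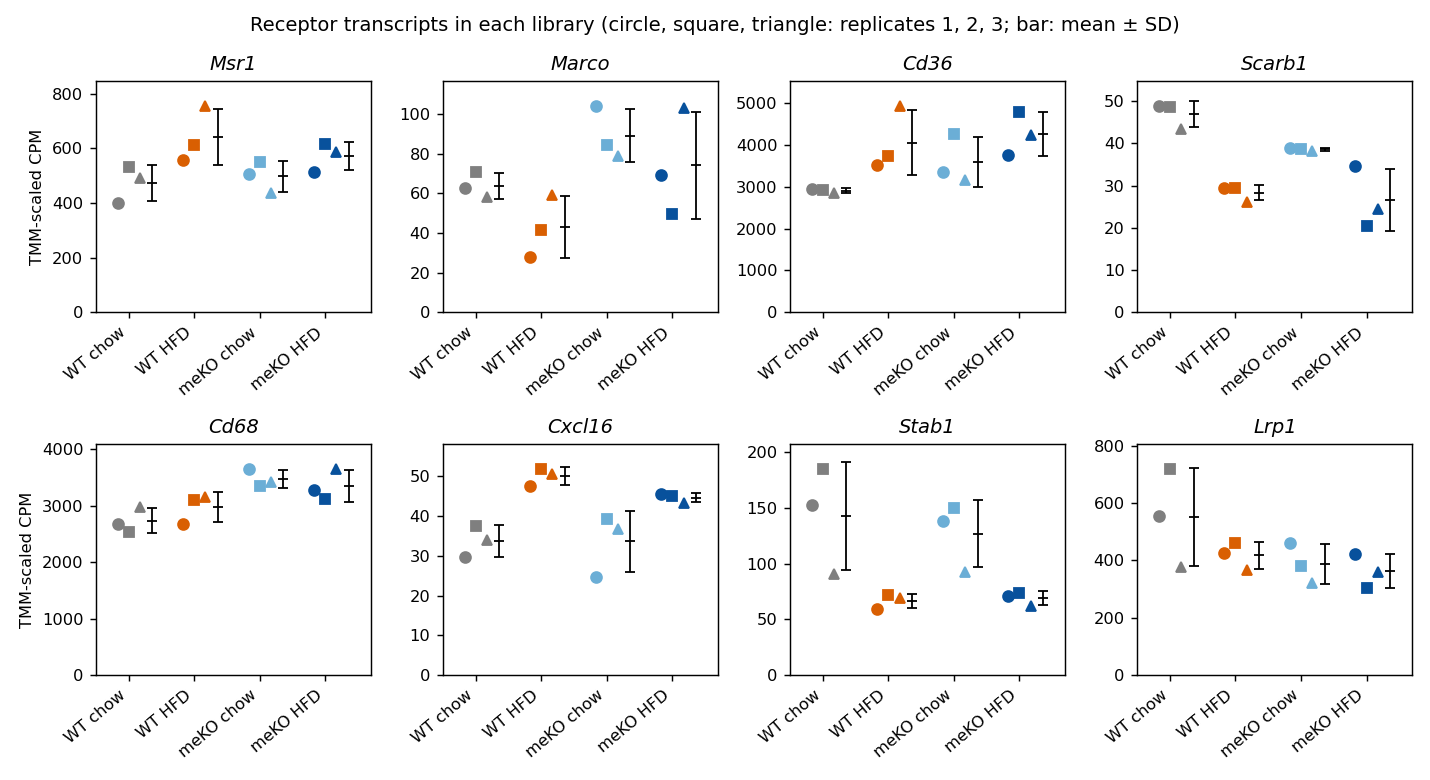
TMM-scaled CPM of the 8 receptors in every library, by group, with the mean and SD of 3 libraries beside the points and linear axes from 0. Stab1 and Scarb1 lie lower, and Cxcl16 higher, in all HFD libraries than in all chow libraries of the same genotype, with no overlap.

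Stab1 (Entrez 192187), or stabilin-1, is a large fasciclin-domain receptor of tissue macrophages and sinusoidal endothelium that takes up acetylated LDL, SPARC and dying cells. The gene lies at chr14:31139013-31168641 (GRCm38, minus strand), and its transcript has 69 exons over 7999 bases. The WT chow libraries had 153, 185 and 90.4 CPM and the WT HFD libraries 59.5, 71.7 and 68.7 CPM. For meKO the levels were 138, 150 and 92.5 CPM on chow and 71.1, 73.9 and 61.7 CPM on HFD. Every HFD library lay below every chow library of either genotype, and replicate 3 was the lowest chow library in both. Averaged over genotypes Stab1 fell by 0.99 ± 0.16 on the log2 scale (SE; edgeR adjusted p = 0.00352), a 1.99-fold drop, and passed in all 21 alternatives, including the length and GC correction (-0.60, adjusted p = 0.00883). In WT it fell by 1.10 ± 0.22 (edgeR adjusted p = 0.0123), and in meKO the value was -0.88 ± 0.22 (adjusted p = 0.140). The WT call was lost after the length and GC correction (-0.51, adjusted p = 0.0749). Leaving out WT chow replicate 1 (0.0641) or 2 (0.0515), or WT HFD replicate 1 (0.0507) or 3 (0.0673), also ended it, all edgeR adjusted p. DESeq2, which called 1.84% of all genes in meKO, called Stab1 there (adjusted p = 0.0148). It was also called there in edgeR without WT chow replicate 3 (0.0457) and by voom with library quality weights (0.0172). Its exons share 112 bases with Nt5dc2 on the opposite strand, and the strand setting of the counting is not given in the sources used here.

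Scarb1 (Entrez 20778, chr5:125277087-125341094) encodes SR-BI, the HDL receptor that exchanges cholesterol between HDL and the membrane in both directions. The WT chow libraries had 48.9, 48.7 and 43.3 CPM and the WT HFD libraries 29.3, 29.4 and 26.2 CPM. The meKO libraries had 38.8, 38.8 and 38.2 CPM on chow and 34.7, 20.4 and 24.4 CPM on HFD. All 6 HFD libraries lay below all 6 chow libraries, and meKO HFD replicate 1 came nearest to the chow range. Averaged over genotypes Scarb1 fell by 0.63 ± 0.11 (SE; edgeR adjusted p = 0.00434), a 1.55-fold drop, and passed in all 21 alternatives. In WT it fell by 0.73 ± 0.16 (edgeR adjusted p = 0.0134), beside -0.54 ± 0.16 in meKO (adjusted p = 0.182). The WT call was lost without WT chow replicate 1 (adjusted p = 0.0770) or 2 (0.0532) or WT HFD replicate 3 (0.0798) in edgeR. Without meKO HFD replicate 1 the fall in meKO also passed (-0.78, edgeR adjusted p = 0.0140), as it did in voom with library quality weights (-0.63, adjusted p = 0.0172).

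Cxcl16 (Entrez 66102, chr11:70453983-70459984) encodes a transmembrane chemokine that binds oxidised LDL and phosphatidylserine on the cell and, once shed, attracts CXCR6-bearing lymphocytes. Levels were 29.7, 37.5 and 33.8 CPM in WT chow and 47.6, 52.0 and 50.5 CPM in WT HFD. They were 24.8, 39.2 and 36.8 CPM in meKO chow and 45.4, 45.0 and 43.3 CPM in meKO HFD. The HFD libraries were all above the chow libraries and, within a genotype, closer to one another than the chow libraries were. Averaged over genotypes Cxcl16 rose by 0.49 ± 0.11 (SE; edgeR adjusted p = 0.00882), or 1.40-fold, and passed in all 21 alternatives. The rise was 0.57 ± 0.15 in WT (edgeR adjusted p = 0.0239) and the value in meKO 0.41 ± 0.15 (adjusted p = 0.258). In WT the call was lost without WT chow replicate 1 (0.111) or 2 (0.0539), and without WT HFD replicate 1 (0.0565), 2 (0.0520) or 3 (0.0904), all edgeR adjusted p. Of its 3021 exon bases 552 overlap Zmynd15 on the opposite strand, and without the strand setting those reads cannot be assigned with certainty.

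Cd36 (Entrez 12491, chr5:17781690-17888801) is the class B receptor through which macrophages bind oxidised LDL and fatty acids. The WT chow libraries had 2951, 2926 and 2842 CPM and the WT HFD libraries 3508, 3724 and 4933 CPM. Among meKO libraries, chow gave 3356, 4259 and 3153 CPM and HFD 3759, 4791 and 4237 CPM. The WT groups did not overlap and WT HFD replicate 3 was the highest library, whereas meKO chow replicate 2 lay within the meKO HFD range. Averaged over genotypes Cd36 rose by 0.36 ± 0.11 (SE; edgeR adjusted p = 0.0238), or 1.29-fold. That call was lost without WT HFD replicate 3 (0.0664), meKO chow replicate 3 (0.0635) or meKO HFD replicate 2 (0.0599). In WT alone the edgeR adjusted p was 0.0398, and 14 of 22 alternatives passed. The WT call was lost after the length and GC correction (0.0527), with library totals (0.0572), without WT chow replicate 1 (0.116) or 2 (0.110), without WT HFD replicate 1 (0.0561), 2 (0.0522) or 3 (0.181) and without meKO HFD replicate 3 (0.0503). In meKO the value was 0.25 ± 0.15 (SE; edgeR adjusted p = 0.413).

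Msr1 (Entrez 20288, chr8:39581685-39642673) encodes the class A macrophage receptor for acetylated and oxidised LDL. It stood at 402, 531 and 490 CPM in WT chow and 557, 612 and 756 CPM in WT HFD. In meKO it stood at 505, 549 and 438 CPM on chow and 514, 615 and 585 CPM on HFD. The WT groups did not overlap, with WT HFD replicate 3 again the highest library, and the meKO groups did. Msr1 rose by 0.32 ± 0.10 averaged over genotypes (SE; edgeR adjusted p = 0.0305) and by 0.44 ± 0.14 in WT (0.0445); the value in meKO was 0.20 ± 0.14 (adjusted p = 0.479). After the length and GC correction the averaged value was 0.05 (edgeR adjusted p = 0.686) and the WT value 0.09 (0.661), and both calls were lost. The averaged call was also lost without WT chow replicate 1 (0.0745), WT HFD replicate 3 (0.0845), meKO chow replicate 3 (0.0801) or meKO HFD replicate 2 (0.0703) or 3 (0.0588). The WT call was lost in 10 of 22 alternatives, among them those without WT chow replicate 1 (0.172) or 2 (0.0778), any WT HFD library (0.0567, 0.0640 and 0.185), meKO chow replicate 1 (0.0523) or meKO HFD replicate 3 (0.0543).

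Marco, the other class A receptor (Entrez 17167, chr1:120474538-120505024), binds bacteria and inhaled particles and is known for marked regulation by Toll-like receptor ligands. Its libraries had 62.9, 70.7 and 57.9 CPM in WT chow and 27.9, 41.6 and 59.4 CPM in WT HFD. They had 104, 84.4 and 78.7 CPM in meKO chow and 69.1, 49.7 and 103 CPM in meKO HFD. Replicate 3 was the highest HFD library in both genotypes and reached into the chow range, so the diet groups overlapped. The averaged diet value was -0.42 ± 0.19 (SE; edgeR adjusted p = 0.0998). It passed without WT HFD replicate 3 (-0.57, adjusted p = 0.0435) and without meKO HFD replicate 3 (-0.58, adjusted p = 0.0330). In WT the value was -0.57 (edgeR adjusted p = 0.125), and voom with library quality weights called it (-0.82, adjusted p = 0.0106).

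Lrp1 (Entrez 16971, chr10:127538161-127621148) has 89 exons and a transcript of 14888 bases. The WT chow libraries spread widely, at 554, 720 and 377 CPM, and the WT HFD libraries had 424, 460 and 366 CPM. The meKO libraries had 460, 381 and 322 CPM on chow and 422, 304 and 358 CPM on HFD. The 2 highest values belonged to WT chow replicates 1 and 2, the libraries in which levels rose most with transcript length, and the other 10 lay between 304 and 460 CPM. The averaged diet value was -0.25 ± 0.14 (SE; edgeR adjusted p = 0.195), and it was 0.13 after the length and GC correction. It passed without WT chow replicate 3 (-0.35, edgeR adjusted p = 0.0283) and in voom with library quality weights (-0.29, adjusted p = 0.0315). In WT the value was -0.40 (edgeR adjusted p = 0.159), and it passed in these 2 alternatives too (0.0165 and 0.0115).

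Cd68 (Entrez 12514, chr11:69664213-69666153) had the smallest diet value of the 8. It stood at 2684, 2538 and 2980 CPM in WT chow and 2676, 3109 and 3155 CPM in WT HFD. In meKO it stood at 3651, 3350 and 3421 CPM on chow and 3275, 3111 and 3658 CPM on HFD. The diet groups overlapped in both genotypes. The averaged diet value was 0.04 ± 0.08 (SE; 95% interval -0.13 to 0.21; edgeR adjusted p = 0.758), and it was -0.02 with library totals and -0.18 after the length and GC correction.

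**Figure D3:**
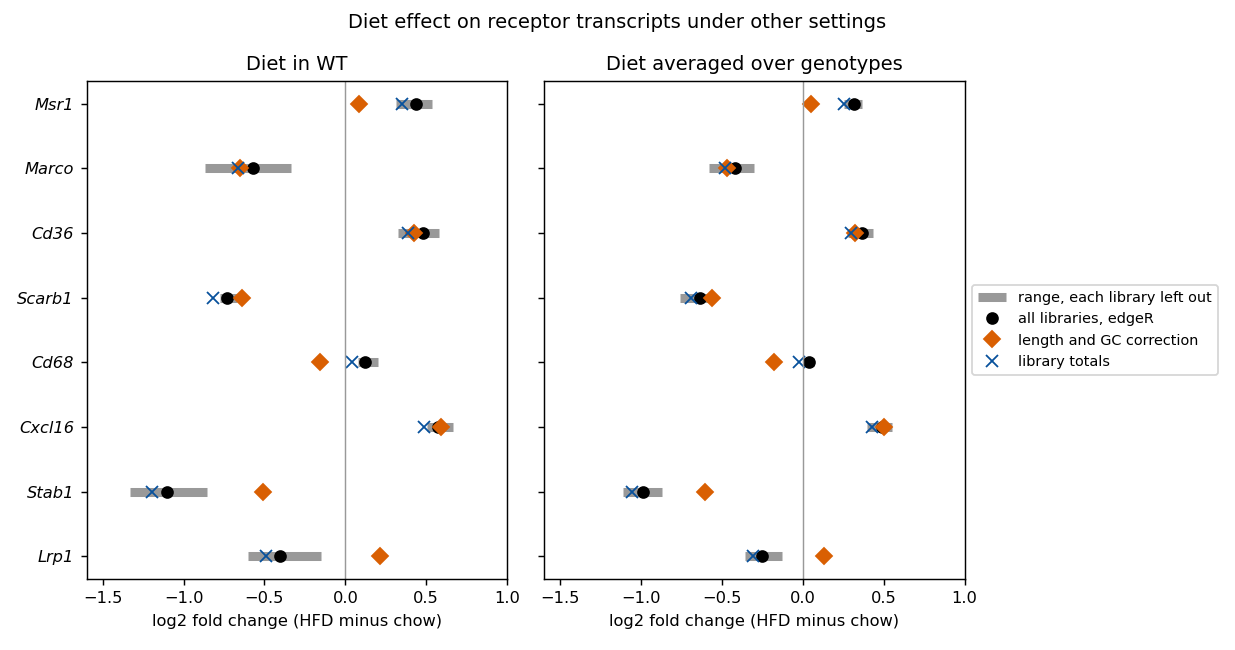
Log2 fold change of HFD over chow for each receptor in WT and averaged over genotypes, with all libraries (circles), with library totals (crosses), after the length and GC correction (diamonds), and the range with each library left out (grey bars). Stab1, Scarb1, Cxcl16, Cd36, Msr1 and Marco keep their side of 0 under these settings. Lrp1 and Cd68 change side after the correction (0.21 and -0.16 in WT), and Cd68 also with library totals when averaged (-0.02).

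Within genotypes, the receptors called were the same 5 in WT and none in meKO. In WT, 5 of 8 passed, 3 higher and 2 lower, where 21.3% of all genes were called, 9.5% higher and 11.8% lower; in meKO, 0 of 8 passed, where 0.105% of all genes were called. At an unadjusted p under 0.05, 3 receptors passed in meKO (Stab1, Scarb1 and Cxcl16), beside 15.9% of all genes, and the same 3 had diet groups that did not overlap there, beside 19.7% of all genes. In WT 5 receptors had groups that did not overlap, beside 39.3% of all genes. The WT count depended on single libraries: 0 receptors passed without WT chow replicate 1, WT chow replicate 2 or WT HFD replicate 3, where 1.05%, 2.59% and 0.778% of all genes passed. It was 1 without WT HFD replicate 1, 2 without WT HFD replicate 2 and 3 without meKO HFD replicate 3. These fits called 3.73%, 13.6% and 17.1% of all genes. With library totals 3 of the 8 passed in WT, and after the length and GC correction 2 did, beside 22.2% and 12.2% of all genes. Voom with library quality weights called 7 of the 8, where it called 52% of all genes, and 6 passed without WT chow replicate 3, beside 39.9% of all genes. Of all WT calls 44.5% were higher on HFD, against 31.3% with library totals, which moved the median of all genes from -0.03 to -0.12, and 56.4% after the correction.

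The difference between genotypes in the response to diet was tested directly by the interaction. No receptor passed (0 of 8 by edgeR; 0.0162% of all genes were called), and 0 of 8 had an unadjusted p under 0.05, beside 6.13% of all genes. DESeq2 and the other alternatives also gave 0. For Stab1 the interaction was 0.22 (95% interval -0.45 to 0.89), for Scarb1 0.19 (-0.28 to 0.66) and for Cxcl16 -0.16 (-0.62 to 0.29). For Cd36 it was -0.23 (-0.69 to 0.23), so these intervals leave room for diet effects of unequal size in the 2 genotypes. The call in WT and its lack in meKO thus do not show that the responses differ.

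**Figure D4:**
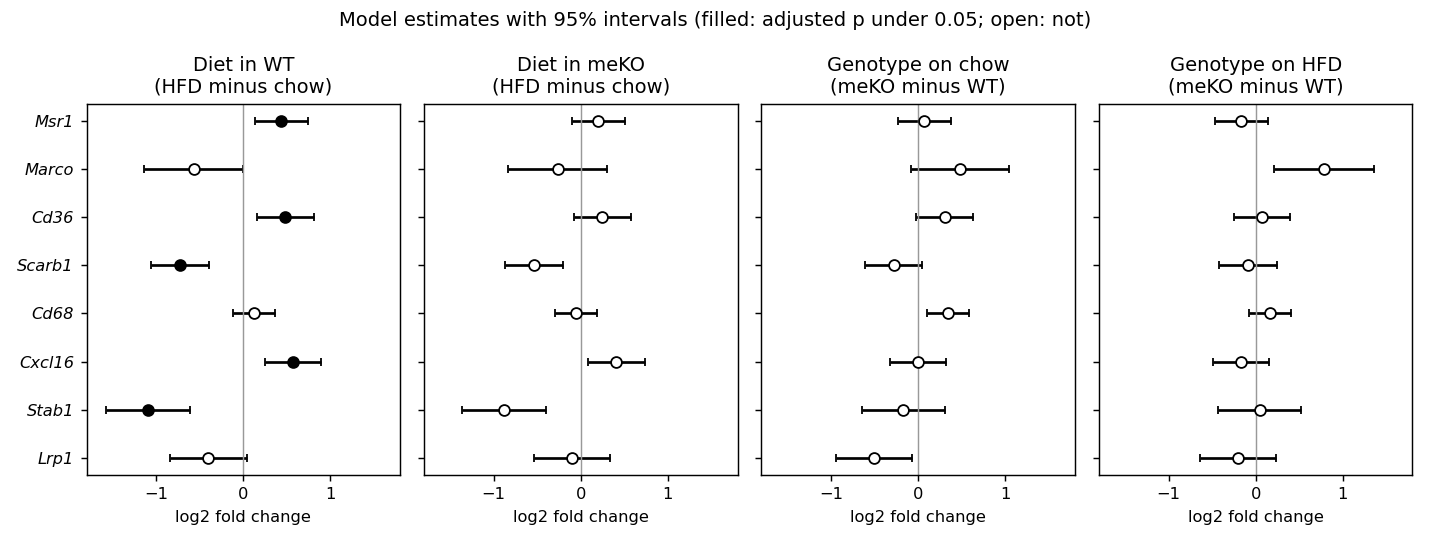
Log2 fold changes of the 8 receptors in the diet and genotype contrasts, with 95% intervals from the edgeR model; filled circles have an adjusted p under 0.05. Filled circles appear in the WT diet panel alone, for Msr1, Cd36, Scarb1, Cxcl16 and Stab1.

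Genotype was compared within each diet, to ask which of these receptors differ between meKO and WT. On chow, 0 of 8 passed in edgeR, where 0.081% of all genes were called; on HFD 0 of 8 passed, again beside 0.081%. Unadjusted p-values under 0.05 were found for 2 receptors on chow (Cd68 and Lrp1; 19.8% of all genes) and for 1 on HFD (Marco; 4.56% of all genes). The WT chow and WT HFD libraries also enter the diet contrast, so the genotype and diet values share samples.

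Cd68 was higher in every meKO chow library than in every WT chow library, with group means of 3474 ± 158 and 2734 ± 225 CPM (SD, n = 3). On chow the log2 difference was 0.35 ± 0.11 (SE; edgeR adjusted p = 0.137), and with HFD it was 0.17 ± 0.11 (adjusted p = 0.999). DESeq2 called the chow difference (0.36, adjusted p = 0.0301), and edgeR called it without WT chow replicate 3 (0.43, adjusted p = 0.0283); these fits called 4.79% and 20.6% of all genes. Voom with library quality weights also called it (0.39, adjusted p = 0.0125), where it called 32.8% of all genes. After the length and GC correction it was 0.16. Cd36 and Marco were also higher, and Scarb1 lower, in all meKO chow than in all WT chow libraries; 4 of 8 receptors had chow groups that did not overlap, beside 17.1% of all genes. Their log2 differences were 0.30 (edgeR adjusted p = 0.273) for Cd36, 0.48 (0.309) for Marco and -0.28 (0.308) for Scarb1.

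Marco had the largest genotype value on HFD among the receptors, with 74.1 ± 27.1 CPM in meKO and 43.0 ± 15.8 CPM in WT (SD, n = 3). The groups overlapped, since meKO HFD replicate 2 lay below WT HFD replicate 3. The log2 difference was 0.78 ± 0.26 (SE; edgeR adjusted p = 0.809) on HFD and 0.63 ± 0.19 averaged over diets (adjusted p = 0.154). DESeq2 called the averaged value (adjusted p = 0.0343), where it called 2.97% of all genes. Voom with library quality weights called both (0.0211 on HFD and 0.00475 averaged), where it called 1.04% and 31.1% of all genes. On chow Lrp1 had a log2 difference between meKO and WT of -0.51 ± 0.20 (SE; edgeR adjusted p = 0.200), which passed without WT chow replicate 3 (-0.70, adjusted p = 0.0181) and in voom with library quality weights (-0.64, 0.0111) and was 0.06 after the length and GC correction. Averaged over diets 0 of 8 passed in edgeR, where 0.17% of all genes were called, and 3 (Marco, Cd68 and Lrp1) had an unadjusted p under 0.05, beside 17.7% of all genes. DESeq2 called 2 of them (Marco and Cd68). Stab1, Msr1 and Cxcl16 had averaged genotype values between -0.09 and -0.05. Neutrophil markers moved with genotype beside these values. Of 9 such markers 4 had a row. S100a9, Retnlg and Cxcr2 were higher in meKO averaged over diets, with S100a9 up by 2.64 ± 0.24 (SE; edgeR adjusted p = 2.01e-04), and S100a8 was not called. S100a9 alone was called within each diet as well. All 4 markers were low, with medians over libraries of 1.42 CPM for S100a9, 0.450 for Cxcr2, 9.98 for Retnlg and 14.7 for S100a8. Their summed level ran from 16.8 to 25.1 CPM in WT chow, 22.7 to 24.1 in WT HFD, 30.5 to 50.01 in meKO chow and 27.6 to 50.6 CPM in meKO HFD, so every meKO library lay above every WT library; Ly6g, Mpo, Elane, Camp and Ngp had no row. The part of neutrophil RNA in the genotype values of Cd68, Marco, Cd36 and the other receptors was not tested.

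The receptors' relatives were described from lists of known family members, of which the genes with a row were counted. These lists, too, were chosen with earlier results of these data known. Among 11 other scavenger receptors, diet averaged over genotypes gave 3 higher (Olr1, Cd14 and Cd5l) and 2 lower (Cd163 and Mrc1), and 6 did not pass. Over all genes, 30.2% were called in this contrast. Cd163, the haemoglobin-haptoglobin receptor, had 15.6, 19.7 and 18.5 CPM in WT chow and 6.02, 7.02 and 4.60 CPM in WT HFD. In meKO Cd163 had 12.2, 16.3 and 21.9 CPM on chow and 7.38, 5.04 and 4.92 CPM on HFD, so all 6 HFD libraries lay below all chow libraries. It fell by 1.57 ± 0.16 averaged over genotypes (SE; edgeR adjusted p = 2.51e-04), in all 21 alternatives. Mrc1, the mannose receptor, fell by 0.69 ± 0.11 (edgeR adjusted p = 0.00415), or -0.53 after the length and GC correction. Olr1, the lectin-like receptor for oxidised LDL, was scarce and rose from 2.49 ± 0.346 to 5.30 ± 1.39 CPM in WT (SD, n = 3), by 0.92 ± 0.15 averaged over genotypes (SE; edgeR adjusted p = 0.00386). Cd14, the lipopolysaccharide co-receptor, rose by 0.30 ± 0.09 (edgeR adjusted p = 0.0318) and passed in 12 of 21 alternatives. It was lost with library totals (0.0709) and after the length and GC correction (0.140), and with an adjusted p between 0.0563 and 0.0845 on leaving out replicate 1 or 2 of WT chow, 1 or 3 of WT HFD, 2 or 3 of meKO chow or 1 of meKO HFD. The count of 5 dropped to 3 (Olr1, Mrc1 and Cd163) on leaving out replicate 1 or 2 of WT chow, or replicate 3 of WT HFD or of meKO chow. Those fits called 15.9% to 18% of all genes.

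The other lipoprotein receptor family members and VPS10-domain sorting receptors were lower on HFD where they moved. Of 11 genes with a row, 9 fell and 0 rose averaged over genotypes, with a median log2 fold change of -0.57 beside -0.03 over all genes. Over all genes, 15.3% were called lower and 14.9% higher. After the length and GC correction 6 of the 11 fell (Lrp6, Lrp8, Lrp12, Ldlrad3, Sorl1 and Sort1), where 22.9% of all genes were called. Sort1, or sortilin, which sorts cargo between Golgi and endosomes, had 112, 134 and 76.3 CPM in WT chow and 58.7, 58.9 and 51.6 CPM in WT HFD. The meKO libraries had 76.6, 89.3 and 82.9 CPM of Sort1 on chow and 58.2, 41.5 and 54.0 CPM on HFD, so all 6 HFD libraries lay below all chow libraries. It fell by 0.81 ± 0.13 averaged over genotypes (SE; edgeR adjusted p = 0.00312), a 1.75-fold drop, or -0.55 after the correction. Sorl1, another VPS10-domain sorting receptor, fell by 0.99 ± 0.17 (edgeR adjusted p = 0.00418), or -0.70 after the correction. Ldlrad3 fell by 1.03 ± 0.20 (edgeR adjusted p = 0.00622) and Lrp12 by 0.39 ± 0.08 (0.00796), or -0.26 after the correction. These 4 passed in all 21 alternatives. Within WT the count of the list was 7 of 11, beside 21.3% of all genes. It was 2 after the correction (Sorl1 and Sort1), beside 12.2% of all genes. It was 1 (Sorl1) without WT chow replicate 1 or without WT HFD replicate 3, beside 1.05% and 0.778% of all genes. The count was 3 on leaving out WT chow replicate 2 or WT HFD replicate 1 or 2, beside 2.59%, 3.73% and 13.6%. On leaving out meKO chow replicate 1 or 2 it was 4, beside 18% and 18.7%. In meKO 0 of 11 passed in edgeR, beside 0.105% of all genes. DESeq2 called 3 there (Lrp8, Ldlrad3 and Sort1), beside 1.84%.

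**Figure D5:**
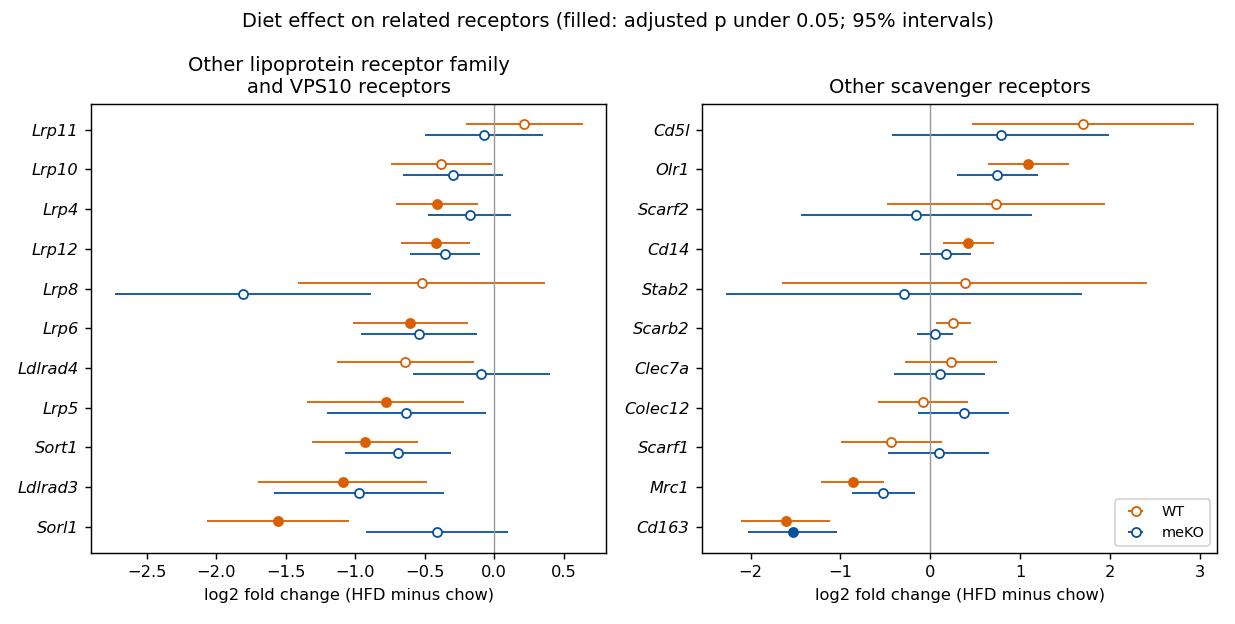
Log2 fold change of HFD over chow in WT and meKO, with 95% intervals from the edgeR model, for the other lipoprotein receptor family and VPS10 receptors (left) and the other scavenger receptors (right); filled circles have an adjusted p under 0.05. In WT, 7 of the 11 genes on the left are filled and all 7 lie below 0, and Cd163 is the one gene filled in meKO.

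Of 18 chaperones, adaptors and recycling factors that serve these receptors, 2 rose and 6 fell averaged over genotypes, where 30.2% of all genes were called. Dab2, an endocytic adaptor for lipoprotein receptor tails, fell by 0.65 ± 0.09 (SE; edgeR adjusted p = 0.00134). Snx27, a sorting nexin of endosomal recycling, fell by 0.57 ± 0.11 (edgeR adjusted p = 0.00704). Furin, the protease that matures the Lrp1 precursor, fell by 0.57 ± 0.12 (0.00788), and Cltc, the clathrin heavy chain, by 0.42 ± 0.10 (0.00978). After the length and GC correction the values of Furin and Cltc were -0.29 and -0.24, which still passed (edgeR adjusted p = 0.00902 and 0.0232). Those of Dab2 and Snx27 were -0.50 and -0.48, and they passed too (0.00320 and 0.00690). Mylip, a ubiquitin ligase that marks lipoprotein receptors for breakdown, rose by 0.36 ± 0.10 (edgeR adjusted p = 0.0169), and Commd1, part of a complex for endosomal recycling, by 0.56 ± 0.14 (0.0119); these 2 were named after their values were seen. In WT 7 of the 18 passed and in meKO 0 in edgeR, beside 21.3% and 0.105% of all genes. The WT count was 1 (Dab2) without WT chow replicate 1 or without WT HFD replicate 3, beside 1.05% and 0.778% of all genes. It was 2 on leaving out replicate 2 of WT chow or 1 of WT HFD (2.59% and 3.73%), and 11 without WT chow replicate 3 (39.9%). It was 13 in voom with library quality weights, beside 52% of all genes. Furin and Cltc lost their WT call after the length and GC correction (edgeR adjusted p = 0.0556 and 0.0565).

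Of 14 genes that handle lipid after uptake, 3 rose (Plin2, Abca1 and Abcg1) and 1 fell (Soat1) averaged over genotypes, and 10 did not pass. Over all genes 30.2% were called, so the share called in this list was near that of all genes. Plin2, the coat protein of lipid droplets, rose by 0.41 ± 0.07 (SE; edgeR adjusted p = 0.00488). The sterol exporters Abca1 and Abcg1 rose by 0.82 (edgeR adjusted p = 0.00817) and 0.55 (0.00975), and these 3 passed in all 21 alternatives. Soat1, which esterifies cholesterol for storage, fell by 0.29 ± 0.08 (edgeR adjusted p = 0.0183) and did not pass without WT chow replicate 1 (adjusted p = 0.0516), without meKO chow replicate 3 (0.0520) or after the length and GC correction (-0.09, 0.392). After that correction Abcg1 was up by 0.83. The count of 4 became 7 without WT chow replicate 3 and 8 in voom with library quality weights, where 43.2% and 51% of all genes were called.

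Among 14 factors known to control these receptors or to signal from them, 3 rose and 3 fell averaged over genotypes. Over all genes, 30.2% were called. Nr1h3, the sterol sensor LXR alpha, rose by 0.52 ± 0.08 (SE; edgeR adjusted p = 0.00347). Pparg, an activator of Cd36 transcription, rose by 0.47 ± 0.12 (0.0138) and Spi1, which encodes PU.1, by 0.26 ± 0.08 (0.0230); these 2 were named after their values were seen, and Spi1 was lost with library totals (0.0521) and on leaving out WT chow replicate 1 (0.0627) or 2 (0.0601), WT HFD replicate 3 (0.0594) or meKO chow replicate 3 (0.0614). Srebf2, which drives sterol synthesis genes, fell by 1.07 ± 0.11 (edgeR adjusted p = 3.40e-04). Rxra, the partner of LXR and PPAR gamma, fell by 0.75 ± 0.12 (0.00312) and Maf, a macrophage differentiation factor, by 0.64 ± 0.08 (8.37e-04). After the length and GC correction Rxra was -0.45 and Pparg 0.28, and both still passed (edgeR adjusted p = 0.00161 and 0.0149). Srebf2 was then -0.75 and Maf -0.43, and both passed as well (0.00160 and 0.00332). Maf was also the one gene of the 5 lists called between genotypes, with a log2 difference of -0.44 ± 0.08 averaged over diets (edgeR adjusted p = 0.0356), in 11 of 21 alternatives.

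The genes whose log2 CPM ran most like each receptor over the 12 libraries were picked from the 11499 genes that averaged 1 CPM or more. Stab1 ran most like Mrc1, another receptor of the alternatively activated macrophage (Pearson's r = 0.94), and Tcp11l1 (0.92). Scarb1 ran like Fnbp1 (0.98) and Peg13 (0.97), and Lrp1 like Tecpr2 (0.97). Cd68 followed Rnasek (0.96) and Prdx6 (0.94), and Cd36 followed Stam2 and Airn (both 0.95). For Msr1 the nearest were Lilrb4a (0.92) and Nipa2 (0.91), for Cxcl16 Odc1 (0.89) and Gnl2 (0.88), and for Marco Kmt5a (0.90) and Ddx55 (0.86). Libraries of a group share diet, genotype and any trend with length, so these values are a description.

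Markers of macrophages and of other cells in the lavage moved with diet beside these receptors, in a contrast where 30.2% of all genes were called. Of 8 macrophage markers, 3 rose (Cd14, Fcgr1 and Lgals3) and 4 fell (Adgre1, Csf1r, Mertk and Itgam) averaged over genotypes. Of the 4 neutrophil markers with a row, 2 rose (S100a8 and S100a9) and 1 fell (Retnlg). The summed level of 7 B cell markers ran from 113 to 173 CPM in WT chow, 54.7 to 91.6 in WT HFD, 78.2 to 169 in meKO chow and 57.5 to 116 CPM in meKO HFD, and 6 of the 7 fell averaged over genotypes; Pax5 had no row. That of 10 mesothelial and fibroblast markers ran from 51.5 to 92.4 CPM in WT chow, 96.0 to 141 in WT HFD, 51.3 to 97.2 in meKO chow and 114 to 143 CPM in meKO HFD, and 5 of 10 rose. Of 10 resident large peritoneal macrophage markers, 2 rose (Cd5l and Gata6) and 2 fell (Alox15 and F5) averaged over genotypes. Their median log2 fold change was -0.24, and it was -0.63 in WT, where 0 rose and 2 fell. Their sum ran from 343 to 936 CPM in WT chow, 1141 to 1828 in WT HFD, 598 to 1124 in meKO chow and 702 to 1655 CPM in meKO HFD, and Cd5l alone made 911 to 1486 CPM of it in WT HFD. Without Cd5l the sum of the other 9 ran from 188 to 445 CPM in WT chow, 230 to 341 in WT HFD, 133 to 341 in meKO chow and 155 to 331 CPM in meKO HFD, and the diet groups overlapped. Endothelial cells also make Stab1, Scarb1 and Cd36. Of 8 endothelial markers 3 had a row, with sums of 42.1 to 67.0 CPM in WT chow and 38.7 to 46.6 in WT HFD. The sums were 44.0 to 55.7 CPM in meKO chow and 40.1 to 46.7 in meKO HFD. Cdh5, Tek, Tie1, Emcn and Cldn5 had no row. Of the 3, Vwf alone was called for diet. It fell by 0.44 ± 0.12 averaged over genotypes (SE, edgeR adjusted p = 0.0192) and by 0.57 ± 0.17 in WT (0.0351). Platelets also carry Cd36. Of 6 platelet and megakaryocyte markers 3 had a row, with sums, nearly all of them Pf4, of 79.8 to 182 CPM in WT chow, 193 to 269 in WT HFD, 103 to 242 in meKO chow and 159 to 312 CPM in meKO HFD; Gp9, Gp1ba and Treml1 had none. None of these 3 was called for diet in edgeR. Their median log2 fold change was 0.43 in WT, where the sums of the diet groups did not overlap, and -0.50 in meKO. These opposite signs gave -0.04 averaged over genotypes. No adipocyte marker of 6 had a row. The part of these cells in the receptor values was not tested.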

How the data were processed

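The authors deposited whole-number read counts per gene and library; mm10 and DESeq2 are named in the submitters' processing notes, and the aligner, counter and strand setting are not given in the sources used here. Per the labels' protocols, TruSeq libraries were made from RNA taken up in Trizol. Genes without a symbol (186) held 0.44% of counts. Counts were fitted with edgeR 4.0.16 in R 4.3.3 (TMM factors, filterByExpr, robust quasi-likelihood, 4 group means over 12 libraries), with two-sided tests and Benjamini-Hochberg adjustment over 12339 genes at 0.05. RPKM were computed from counts and GENCODE transcript lengths (GRCm38). Alternatives were DESeq2 1.42.0, library totals, median-of-ratios factors, other count filters, limma 3.58.1 voom with and without library weights, non-robust dispersions, only the groups compared, offsets for length and GC content (known for 93.5% of genes), and each library left out. Scripts were tested on simulated data. Replicate pairs differed beyond sampling noise (chi-square per degree of freedom at least 16.9). Beside the receptors and Prkce, text names up to 4 genes per list with the smallest p and the 2 genes most like each receptor by Pearson's r of log2(CPM + 0.5). Some items under these rules are not reported here. Members and lists were chosen with earlier results of these data known.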

Additional observations from a re-analysis of the deposited data

How the results depend on the processing

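Results were recomputed under 22 alternatives in the contrasts of 2 groups and 21 in the others. The alternative without the low-count filter repeated the main fit, because all 12339 genes passed the filter. The alternatives for the related lists were chosen after seeing the data. Averaged over genotypes, Stab1, Scarb1 and Cxcl16 kept their diet direction and passed in all 21. No paired analysis was possible because the labels give no pairing of libraries and no replicate numbers. With 3 libraries per group, precision is limited, and a difference that missed the threshold was not detectable at this size rather than absent.

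The number of receptors called moved as follows. For genotype on chow it was 1 with DESeq2, 3 with voom and library quality weights and 0 to 2 with each library left out (2 without WT chow replicate 3). For genotype on HFD it was 1 with quality weights. For diet in WT it was 7 with quality weights, 3 with library totals, 2 after the length and GC correction and 0 to 6 with each library left out. For diet in meKO it was 1 with DESeq2, 2 with quality weights and 0 to 1 with each library left out. For diet averaged it was 3 to 6 with each library left out, and for genotype averaged 2 with DESeq2, 4 with quality weights and 0 to 2 with each library left out. Over all genes, edgeR called 2634 for diet in WT, against 6411 with quality weights, 2741 with library totals, 1500 after the correction and 96 to 4921 with each library left out. It called 3721 for diet averaged, against 6298 with quality weights and 1957 to 5326 with each library left out. It called 10 for genotype on chow, against 591 with DESeq2, 4047 with quality weights and 2 to 2543 with each library left out. The level of Msr1 moved to 150 RPKM with its longest transcript. The cause was not tested.

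The results that changed sign were all below the threshold. In genotype on chow, Cxcl16 was 0.0070 with median-of-ratios factors, 0.0048 with at least 10 counts in every library, 0.0070 with DESeq2 and 0.033 with quality weights. Msr1 was -0.0027 there with library totals. After the length and GC correction Msr1 was -0.15, Lrp1 0.060 and Stab1 0.32 in that contrast, Lrp1 0.21 and Cd68 -0.16 for diet in WT, Lrp1 0.048 for diet in meKO, Lrp1 -0.17 and Stab1 -0.19 for the interaction, Lrp1 0.13 and Cd68 -0.18 for diet averaged and Stab1 0.23 for genotype averaged. With quality weights Stab1 was -0.027 for genotype on HFD, Marco 0.033 and Cd68 0.033 for diet in meKO and Msr1 0.037 for genotype averaged. Cd68 was -0.024 for diet averaged with library totals. With each library left out, genotype on chow ran from -0.024 to 0.16 for Msr1, -0.40 to 0.070 for Stab1 and -0.12 to 0.19 for Cxcl16. Genotype on HFD ran from -0.029 to 0.23 for Cd36, -0.030 to 0.12 for Stab1 and -0.34 to 0.055 for Scarb1. Diet in meKO ran from -0.23 to 0.033 for Lrp1. The interaction ran from -0.029 to 0.44 for Stab1, -0.054 to 0.35 for Scarb1 and -0.022 to 0.59 for Marco. Genotype averaged ran from -0.18 to 0.055 for Stab1, -0.099 to 0.019 for Msr1 and -0.15 to 0.0074 for Cxcl16. For these sign changes, too, the cause was not tested.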
